A study of Mus musculus with 10 samples.

Results

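Sp100, Sp110, Sp140 and Pml encode PML, the scaffold of PML nuclear bodies, and the SP100 protein family tied to such bodies, and their RNA was followed in mouse livers after 7 days of napabucasin or its vehicle. The 4 genes were chosen by name from the 54532 genes of the deposited count table, with their counts in these livers already known. Their differences between the groups are therefore given as a description. No separate test was run on them, and nothing is read from their calls in the tests over all genes. All 4 had counts in every library and were among the 14244 genes kept by the filter on low counts. Napabucasin (BBI608) is a naphthoquinone best known as a blocker of the transcription factor STAT3. The 5 napabucasin libraries came from mice gavaged daily with 20 mg per kg body weight for 7 days, and the 5 vehicle libraries from mice gavaged daily for 7 days with 1% sodium carboxymethyl cellulose (NaCMC). RNA came from whole liver, so hepatocytes, immune, endothelial and stromal cells were measured together. Neither strain, sex nor age is given in the sources used here.

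PML nuclear bodies are round structures of the cell nucleus that PML builds by linking to itself and to SUMO, a small protein tag. SP100 is a lasting resident of these bodies, and SP110 and SP140 are its relatives, which share a CARD-like domain, a DNA-binding SAND domain and, in their longer forms, a PHD finger and a bromodomain that read histone tails. Interferons are known to raise the transcription of all 4 genes; SP110 and SP140 are known mainly from leukocytes, and both have been tied to resistance to mycobacteria in mice.

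Sp100, Sp110 and Sp140 lie side by side on chromosome 1 and Pml lies on chromosome 9, in the coordinates of the count table (GRCm38). Sp110 (ENSMUSG00000070034) runs from 85576899 to 85598817 on the minus strand, Sp140 (ENSMUSG00000070031) from 85600378 to 85645037 on the plus strand and Sp100 (ENSMUSG00000026222) from 85649988 to 85709998 on the plus strand. The starts of Sp110 and Sp140 face away from each other across 1561 bases, 4951 bases separate the end of Sp140 from the start of Sp100, and the 3 genes together span 133.099 kb. Pml (ENSMUSG00000036986) runs from 58218076 to 58249786 on the minus strand of chromosome 9. All 4 are annotated as protein-coding, and the table gives lengths of 7556 bases for Sp100, 6781 for Sp110, 3328 for Sp140 and 5571 for Pml. GENCODE M21 lists 13 transcripts of Sp100 (8 coding), 9 of Sp110 (1 coding), 6 of Sp140 (3 coding) and 12 of Pml (7 coding).

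The promoter windows of the 4 genes are shown because interferon regulatory factors and STAT proteins bind near such starts, and because they show what the genes share apart from their counts. Each window runs from 250 bases before to 50 bases after an annotated transcript start and is taken from RefSeq on GRCm38.p6. Capitals mark the letters that matched a motif on either strand. The Sp100 window is chr1:85649738-85650037 on the plus strand, the Sp110 window chr1:85598761-85599060 on the minus strand, the Sp140 window chr1:85600453-85600752 on the plus strand and the Pml window chr9:58249737-58250036 on the minus strand. Their GC content is 47.7% for Sp100, 55% for Sp110, 52% for Sp140 and 53.7% for Pml.
Sp100: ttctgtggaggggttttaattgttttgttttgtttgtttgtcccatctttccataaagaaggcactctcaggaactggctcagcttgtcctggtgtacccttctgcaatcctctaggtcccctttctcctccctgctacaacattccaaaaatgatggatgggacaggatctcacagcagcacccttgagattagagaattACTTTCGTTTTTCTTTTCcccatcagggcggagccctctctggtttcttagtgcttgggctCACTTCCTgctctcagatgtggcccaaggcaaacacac
Sp110: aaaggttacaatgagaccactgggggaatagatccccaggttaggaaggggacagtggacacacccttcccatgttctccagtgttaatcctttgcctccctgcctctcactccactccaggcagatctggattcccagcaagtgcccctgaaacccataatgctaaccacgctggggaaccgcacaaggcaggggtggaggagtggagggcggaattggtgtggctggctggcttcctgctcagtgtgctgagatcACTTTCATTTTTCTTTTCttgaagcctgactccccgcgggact
Sp140: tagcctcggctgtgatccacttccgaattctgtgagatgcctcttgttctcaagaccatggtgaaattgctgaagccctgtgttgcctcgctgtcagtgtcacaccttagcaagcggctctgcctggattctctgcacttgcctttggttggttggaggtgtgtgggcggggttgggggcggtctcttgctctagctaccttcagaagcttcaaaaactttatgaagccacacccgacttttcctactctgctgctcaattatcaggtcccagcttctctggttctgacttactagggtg
Pml: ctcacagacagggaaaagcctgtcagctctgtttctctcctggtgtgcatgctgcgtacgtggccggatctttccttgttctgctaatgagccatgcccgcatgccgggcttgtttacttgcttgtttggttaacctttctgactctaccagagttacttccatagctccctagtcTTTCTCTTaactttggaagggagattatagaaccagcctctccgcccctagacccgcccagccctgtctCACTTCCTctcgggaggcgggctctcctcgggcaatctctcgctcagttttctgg

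Sp100 and Sp110 share a run of 18 letters, ACTTTCNTTTTTCTTTTC, where N is any base. It lies at positions -49 to -32 of the Sp100 window and 7 to 24 of the Sp110 window, counted from 0 at the annotated start. Of the 32841 RefSeq windows of the same length, 4 hold this run (0.0122%): 2 overlapping windows of Sp100, 1 of the 2 windows of Sp110, and 1 of Gm7609 (chr1:85199361-85199660, plus strand), a transcribed pseudogene of the same stretch of chromosome 1. The run was defined from these windows, so its rarity is a description. Inside it lie 2 overlapping matches, in each gene, to the core bound by interferon regulatory factors, AANNGAAA, which 23.9% of all windows hold. The other Sp110 window, chr1:85603842-85604141, begins within the span of Sp140 and holds none of the motifs.

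The Pml window holds 1 match to AANNGAAA, at -74 to -67, and the Sp140 window holds none. That Sp140 window (85600453 to 85600752) lies wholly inside Sp140 as the count table gives it, from 85600378. The bases just before the table's start of Sp140 were therefore not searched. The fuller interferon-stimulated element, GAAA followed by any 2 bases and a further GAAA, was in no window of the 4 genes and in 3.44% of all windows. The gamma-activated site bound by STAT proteins, TTCNNNGAA, was likewise in none of them, against 8.3% of all windows. The ETS factor site AGGAAGTG, looked for after the sequences were seen, was at 12 to 19 in Sp100 and at -5 to 2 in Pml, and 4.07% of all windows hold it. Where a motif was not found, only these letters in these windows are meant.

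**Figure D1:**
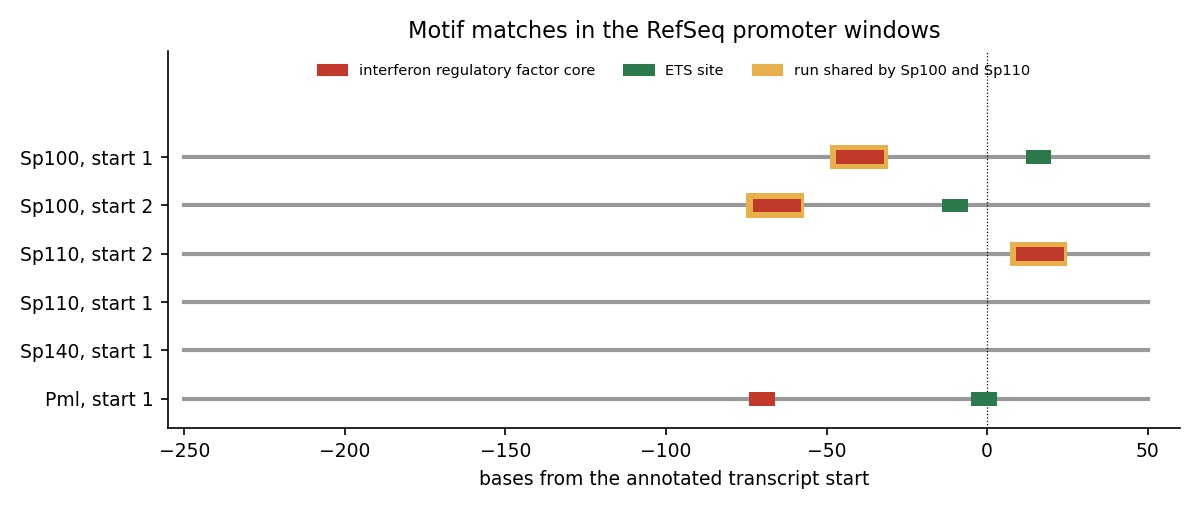
Motif matches in the 6 RefSeq promoter windows of the 4 genes, with bases from the annotated transcript start on the horizontal axis and 1 window per line. The 2 Sp100 windows and 1 Sp110 window carry the shared run with its interferon regulatory factor cores, Pml carries 1 such core, Sp100 and Pml carry the ETS site, and the other Sp110 window and the Sp140 window carry none of the 3.

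Sp100, the founding member of the family, had the largest ratio of the 4 between the groups. Its level, in read counts scaled to library size by the TMM method (CPM), was 42.1, 35.3, 41.6, 56.4 and 50.4 in napabucasin replicates 1 to 5, against 20.7, 28.7, 20.4, 23.5 and 15.8 in vehicle replicates 1 to 5. The groups did not overlap: the lowest napabucasin library, replicate 2, lay above the highest vehicle library, also replicate 2. Sp100 averaged 45.2 ± 8.26 CPM in napabucasin livers and 21.8 ± 4.74 CPM in vehicle livers (SD, n = 5 each), a ratio of 2.07 and a fitted log2 fold change of 1.05 (SE 0.19). Between 220 and 1056 reads per library stood behind these values. In such bulk samples more cells of a type and more RNA per cell cannot be told apart.

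Pml, the scaffold of the bodies, was higher in every napabucasin library than in any vehicle library, with a smaller ratio. It measured 73.0, 50.7, 53.3, 49.5 and 54.1 CPM in napabucasin replicates 1 to 5, against 38.0, 36.0, 41.9, 33.1 and 34.4 CPM in vehicle replicates 1 to 5. Napabucasin replicate 1 stood above the other 4 napabucasin libraries, which lay within 5 CPM of each other. The means were 56.1 ± 9.61 CPM in napabucasin livers and 36.7 ± 3.45 CPM in vehicle livers (SD, n = 5 each), a ratio of 1.53 and a log2 fold change of 0.61 (SE 0.16). Without napabucasin replicate 1 the log2 fold change was 0.50. Pml had 444 to 1171 reads per library.

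Sp110, which like Sp140 has been tied to resistance to mycobacteria in mice, was scarce in liver. Its CPM values were 3.93, 6.82, 10.7, 9.72 and 6.71 in napabucasin replicates 1 to 5, against 2.31, 3.72, 3.84, 5.73 and 4.88 in vehicle replicates 1 to 5. The groups overlapped through napabucasin replicate 1, and the other 4 napabucasin libraries lay above every vehicle library. Sp110 averaged 7.57 ± 2.68 CPM in napabucasin livers and 4.10 ± 1.29 CPM in vehicle livers (SD, n = 5 each). The ratio was 1.85 and the fitted log2 fold change 0.88 (SE 0.30), from 27 to 193 reads per library.

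Sp140, a chromatin reader known from immune cells, was at a like count level to Sp110. It measured 6.17, 4.76, 10.5, 9.03 and 6.43 CPM in napabucasin replicates 1 to 5, against 3.85, 4.13, 3.91, 6.86 and 4.52 CPM in vehicle replicates 1 to 5. Only napabucasin replicates 3 and 4 lay above every vehicle library, and vehicle replicate 4 lay within the napabucasin range. The means of 7.37 ± 2.31 CPM in napabucasin livers and 4.65 ± 1.26 CPM in vehicle livers (SD, n = 5 each) gave a ratio of 1.58 and a log2 fold change of 0.66 (SE 0.26), from 45 to 189 reads per library. It was 0.85 without vehicle replicate 4 and 0.50 without napabucasin replicate 3.

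**Figure D2:**
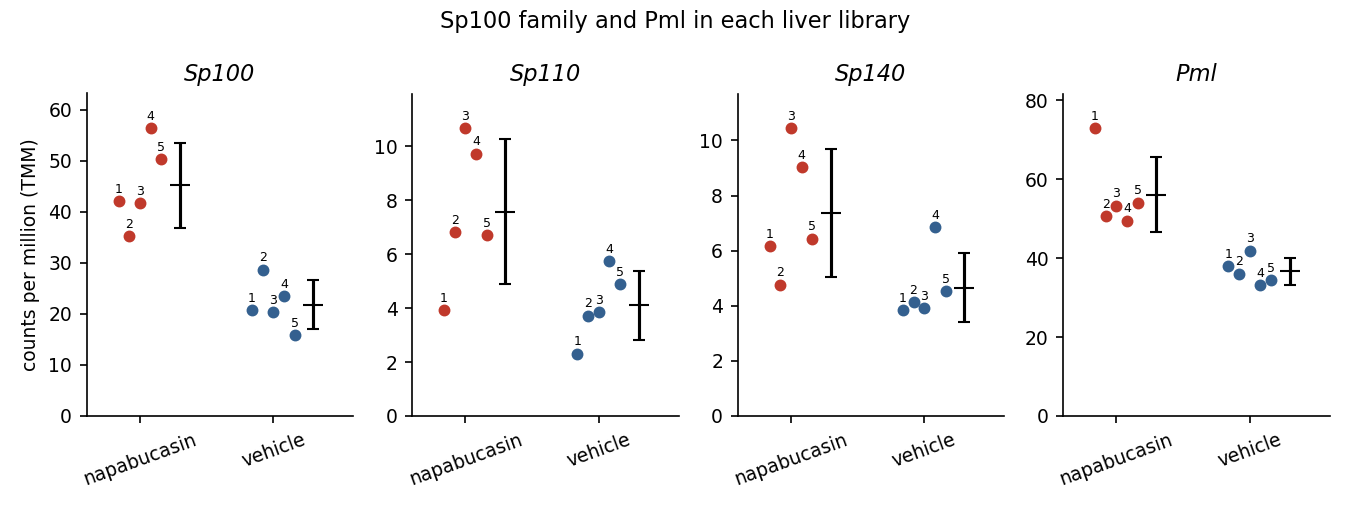
Level of each gene in CPM (TMM) in the 5 napabucasin livers (red) and the 5 vehicle livers (blue), with replicate numbers above the points and the mean ± SD as a black bar beside them. The groups are apart for Sp100 and Pml and overlap for Sp110 and Sp140.

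All 4 genes had log2 fold changes above 0, where 50.1% of the 14244 genes tested did. For 2 of the 4, every napabucasin library lay above every vehicle library, which held for 1.21% of all genes tested, and the reverse held for 0 of the 4 and 0.934% of all genes. At an adjusted p under 0.05, edgeR's quasi-likelihood test with Benjamini-Hochberg adjustment called 0 of the 4 and 0% of all genes tested. DESeq2 called Sp100 and Pml among the 1.07% of its genes that were higher, and limma-voom with quality weights called the same pair among the 0.807% that were higher. Without a filter on low counts, edgeR called Sp100 among 0.0565% of genes higher. These counts come from the contrast in which the genes were chosen, and nothing is read from them.

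The order of the 4 genes per unit of gene length was the same in all 10 libraries. In deposited FPKM (fragments per kilobase of gene, scaled to depth), Pml was highest at 9.93 ± 1.63 in napabucasin livers and 6.54 ± 0.60 in vehicle livers (SD, n = 5 each). Sp100 followed at 5.90 ± 1.08 FPKM in napabucasin livers and 2.86 ± 0.59 FPKM in vehicle livers. Sp140 came next at 2.19 ± 0.70 FPKM in napabucasin livers and 1.39 ± 0.38 FPKM in vehicle livers, and Sp110 was lowest at 1.10 ± 0.40 FPKM in napabucasin livers and 0.60 ± 0.19 FPKM in vehicle livers. Among the genes tested, the vehicle mean placed Pml at percentile 68.9, Sp100 at 48.8, Sp140 at 31.0 and Sp110 at 16.2.

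Within a library Sp100 stayed below Pml. The ratio of Sp100 to Pml FPKM had a median of 0.576 in napabucasin livers (0.426 to 0.840) and of 0.402 in vehicle livers (0.339 to 0.587), and the groups overlapped. Sp110 relative to Sp140, its neighbour across the shared start region, had a median FPKM ratio of 0.512 in napabucasin livers (0.312 to 0.703) and of 0.442 in vehicle livers (0.294 to 0.530). Pml and Sp100 did not overlap each other within either group, whereas the ranges of Sp140 (1.41 to 3.14 FPKM) and Sp110 (0.565 to 1.57 FPKM) did in the napabucasin livers. In vehicle livers Sp140 (1.14 to 2.05 FPKM) and Sp110 (0.334 to 0.841 FPKM) were apart. Sp140 relative to Pml had nearly the same median in both groups, 0.199 in napabucasin livers (0.142 to 0.328) and 0.192 in vehicle livers (0.156 to 0.347).

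**Figure D3:**
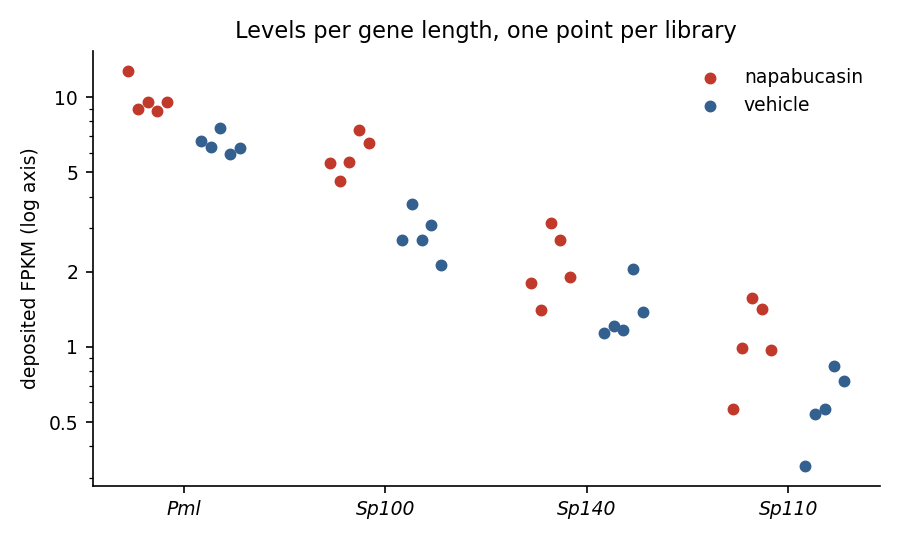
Deposited FPKM of the 4 genes on a log axis, 1 point per liver, with napabucasin livers (red) left of vehicle livers (blue). Pml lay highest and Sp110 lowest in every library.

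The separate values of Sp110 and Sp140 are less certain than those of Sp100 and Pml, because parts of their transcripts also occur in other genes. Of the distinct stretches of 100 bases in the GENCODE M21 transcripts of a gene, 21.9% for Sp110 and 35.6% for Sp140 were also in another gene's transcripts, against 1.74% for Sp100 and 0.0962% for Pml. Sp110 shared most with the pseudogene Gm16026 (891 of 7064 stretches), which had 29 reads in the 10 libraries together. Sp140 shared most with Gm17017 on the opposite strand (527 of 3473 stretches), which had 25 reads. Gm10552, a further antisense gene over Sp140, had 6 reads. Sp140 also shared 292 stretches with Gm2427 (8 reads) and 195 with C130026I21Rik (49 reads). A further 256 were shared with Arhgef12 on the opposite strand, whose reads are not given here. How reads were assigned by strand or among several matching genes is not given in the sources used here.

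The genes around the family on chromosome 1 lay on both sides of 0. From 85076899 to 86209998, which reaches 500 kb beyond Sp110 on one side and Sp100 on the other, the table holds 42 further genes; 10 had no reads and 8 passed the filter. edgeR called 0 of the 8 after adjustment, and with an unadjusted p below 0.05 there were 3 higher and 0 lower, against 9.34% of all genes tested higher and 5.83% lower. A630001G21Rik, the nearest tested gene beyond Sp100, averaged 6.91 ± 2.71 CPM in napabucasin livers and 3.05 ± 1.71 CPM in vehicle livers (SD, n = 5 each), and its groups overlapped (log2 fold change 1.16, SE 0.39, edgeR adjusted p = 0.256).

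A530040E14Rik, an antisense transcript near the far end of the window that shares some sequence with Sp110 and Sp140, averaged 2.69 ± 0.92 CPM in napabucasin livers and 0.95 ± 0.63 CPM in vehicle livers (SD, n = 5 each), and its groups did not overlap (log2 fold change 1.45, SE 0.43, edgeR adjusted p = 0.228). Gpr55, a lipid receptor named after its values were seen, averaged 1.00 ± 0.21 CPM in napabucasin livers and 0.41 ± 0.20 CPM in vehicle livers, without overlap. The remaining 5 had log2 fold changes below 0 and overlapping groups: Itm2c -0.50, 2810459M11Rik -0.29, Cab39 -0.28, Psmd1 -0.23 and Armc9 -0.15. Gm7609, the pseudogene that holds the run of Sp100 and Sp110, had 18, 5, 16, 4 and 16 reads in napabucasin replicates 1 to 5, against 3, 9, 3, 6 and 2 in vehicle replicates 1 to 5, too few to pass the filter.

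**Figure D4:**
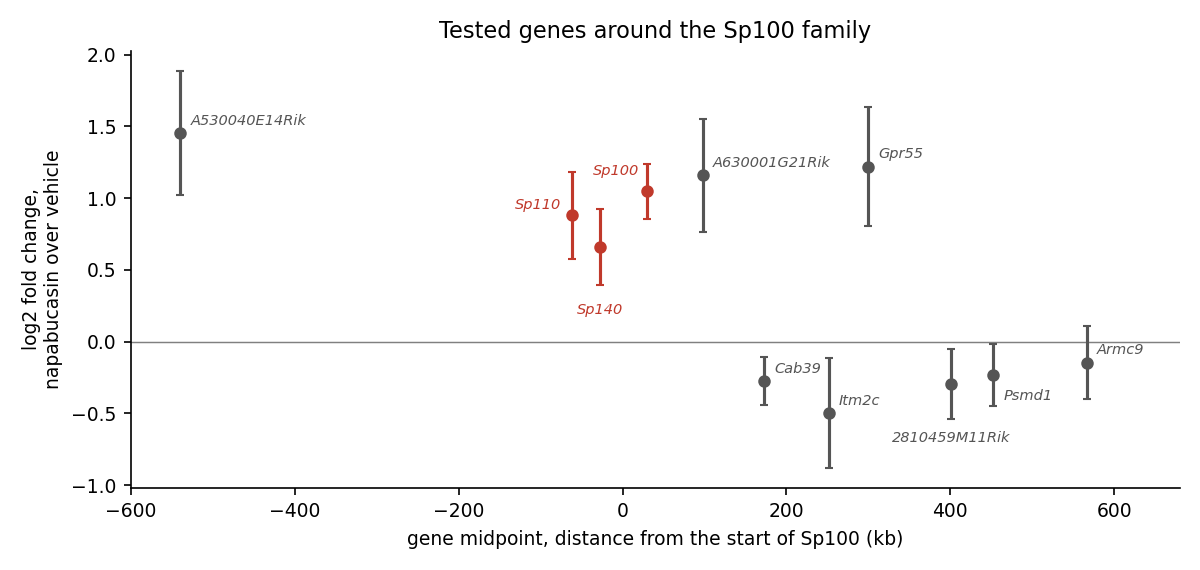
Log2 fold change of napabucasin over vehicle, with its SE as a bar, for the tested genes around the Sp100 family, by distance of the gene's midpoint from the start of Sp100 in kb. The family (red), A530040E14Rik, A630001G21Rik and Gpr55 lie above 0, and Cab39, Itm2c, 2810459M11Rik, Psmd1 and Armc9 lie below it.

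Of the 6 pairs among the 4 genes, Sp110 and Sp140 had the highest correlation within the groups. Over the 10 libraries, with each group's mean of log2 CPM removed, their Pearson r was 0.71 (Spearman rho 0.73), and 0.91 without the 2 libraries farthest from the median of Sp110. It was 0.68 in the napabucasin livers and 0.76 in the vehicle livers, and ranged from 0.63 to 0.83 over the libraries left out in turn. Their starts are neighbours, and parts of both transcripts occur in other genes.

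Pml ran the other way. Sp110 and Pml had an r of -0.74 (rho -0.70), which was -0.48 without those 2 libraries, -0.49 without napabucasin replicate 1 and -0.18 when only library size was scaled for. Sp140 and Pml had an r of -0.38 (rho -0.53), of -0.67 without napabucasin replicate 2, and of -0.01 with that scaling. Sp100 had an r of 0.09 with Sp110 (rho -0.13), 0.32 with Sp140 (rho 0.22) and -0.12 with Pml (rho -0.04); scaled for library size alone, they were 0.41, 0.55 and 0.42. With libraries left out in turn, Sp100 and Sp110 ranged from -0.07 (without napabucasin replicate 4) to 0.30 (without vehicle replicate 5). Sp100 and Sp140 ranged from 0.09 (without napabucasin replicate 2) to 0.49 (without vehicle replicate 2), and Sp100 and Pml from -0.29 (without vehicle replicate 5) to 0.06 (without napabucasin replicate 4). The correlations of Sp100 and Pml depend on the scaling and on single libraries, alternatives chosen after seeing the data. All genes of a library share its depth and cell content, and these values are descriptions.

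The 5 genes most like each member were found by the same r among the 13341 genes that averaged 1 CPM or more; Spearman rho of the 20 ran from 0.72 to 0.94. For Sp100 they were Tanc2 (0.94), Zfx (0.92), Mfap1b (0.90), Prkag1 (0.90) and Pdlim7 (0.90), and 38 genes reached 0.8. For Sp110 they were Vasp (0.96), Arf3 (0.96), Chmp6 (0.95), Adap2os (0.94) and Ythdc2 (0.94), and 378 genes reached 0.8. Sp140 was most like Zfp329 (0.96), Slco3a1 (0.90), Fam216a (0.88), Txndc5 (0.86) and Etv5 (0.86), with 41 genes at 0.8 or more. Pml was most like Nlrx1 (0.96), Oas1c (0.94), Lancl1 (0.94), Cnnm3 (0.93) and Prob1 (0.92), with 151 such genes. Of these, Oas1c is a member of the interferon-induced oligoadenylate synthetase family and Nlrx1 a mitochondrial protein that restrains antiviral signalling. Without napabucasin replicate 1 the r of Pml was 0.77 with Lancl1, 0.73 with Cnnm3 and 0.84 with Oas1c.

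Genes listed as domain relatives of the SP family were mostly on the higher side, and the 4 with the smallest p were the interferon-linked Phf11 genes. Of 19 names 16 were tested, 13 had a log2 fold change above 0 (50.1% of all genes did), and their median was 0.51, where all genes tested had a median of 0.00. edgeR called 0 after adjustment, and with an unadjusted p below 0.05 there were 6 higher and 0 lower of 16, against 9.34% higher and 5.83% lower of all genes. The 6 were 4, and the 0 was 1, without napabucasin replicate 1, and the 6 were 9 without napabucasin replicate 4 or vehicle replicate 2. Phf11d averaged 18.5 ± 4.48 CPM in napabucasin livers and 8.64 ± 2.39 CPM in vehicle livers (SD, n = 5 each), with overlap through napabucasin replicate 2 (log2 fold change 1.10, edgeR adjusted p = 0.157). The log2 fold changes of Phf11a, Phf11b and Phf11c were 1.90, 1.10 and 1.11, their groups overlapped, and these close paralogs can share reads. The 4 Phf11 genes were among the 6 and had the largest log2 fold changes of the list, and its other genes ran from -0.26 to 0.85. The median of 0.51 includes the Phf11 genes, and none was computed without them. DESeq2 called 2 of the 16, Phf11d and Phf11a, as higher, against 1.07% of all its genes, and 0 as lower, against 0.347%. Aire, the SAND-domain regulator of the thymus, had 0 reads.

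Among residents and partners of PML bodies, 31 of 47 tested genes had a log2 fold change above 0, against 50.1% of all genes, with a median of 0.12. edgeR called 0 after adjustment, and 10 had an unadjusted p below 0.05 on the higher side and 1 on the lower, against 9.34% and 5.83% of all genes. DAXX and ATRX, which PML bodies hold and which place a variant of histone H3, had log2 fold changes of 0.35 (SE 0.19, edgeR adjusted p = 0.383) for Daxx and 0.70 (SE 0.23, edgeR adjusted p = 0.246) for Atrx. Hdac7, a histone deacetylase, averaged 12.1 ± 1.70 CPM in napabucasin livers and 7.85 ± 1.53 CPM in vehicle livers (SD, n = 5 each) without overlap. Morc3, an ATPase of the bodies, had a log2 fold change of 0.82 and Arntl, the clock factor BMAL1, of 1.11, both with overlapping groups. The 10 were 6 without vehicle replicate 5, and the 1 lower was 2 without napabucasin replicate 4 or 5, 1 without vehicle replicate 1, 0 without any other single library and 3 with the replicate number as a block.

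Genes of the SUMO pathway, whose tag holds the bodies together, were centred on 0. Of 24 tested genes 12 lay above 0 and the median was 0.00. An unadjusted p below 0.05 was reached by 1 on the higher side and 1 on the lower, both shares below the 9.34% and 5.83% of all genes. Rnf4, the ubiquitin ligase that targets SUMO-tagged PML, averaged 29.4 ± 7.19 CPM in napabucasin livers and 52.6 ± 17.2 CPM in vehicle livers (SD, n = 5 each), and its groups overlapped (log2 fold change -0.84, SE 0.24, edgeR adjusted p = 0.227). limma-voom called Rnf4 among the 0.288% of genes it called lower. Senp2, a SUMO protease, had a log2 fold change of 0.56, the ligase Rnf111 of 0.33 and the protease Senp5 of -0.33, all with overlapping groups. The 1 on the higher side was 0 without napabucasin replicate 1, vehicle replicate 1 or vehicle replicate 3, 2 without vehicle replicate 2, 3 without napabucasin replicate 3 or 4, and 3 with the replicate block. The 1 on the lower side was 2 without napabucasin replicate 4 or vehicle replicate 1.

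TRIM genes of interferon responses, the family to which PML itself belongs, had a median log2 fold change of 0.29 over 17 tested genes. With an unadjusted p below 0.05, 5 lay higher and 1 lower of 17, against 9.34% higher and 5.83% lower of all genes. The lower count was 1 only without napabucasin replicate 5 or vehicle replicate 1 and was 0 without any other single library. Trim30a averaged 30.1 ± 4.73 CPM in napabucasin livers and 16.4 ± 7.05 CPM in vehicle livers (SD, n = 5 each), and the groups did not overlap. Trim30b, Trim12a and Trim34a had log2 fold changes of 1.34, 0.71 and 0.64 with overlapping groups.

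Few reads came from the interferon genes themselves. The 15 ligand genes had 51 reads in the 10 libraries together, 40 of them from Ifng, and 11 had none. Their receptors, kinases and transcription factors had a median log2 fold change of 0.38 over 20 tested genes, with 8 higher and 0 lower of those with an unadjusted p below 0.05, against 9.34% and 5.83% of all genes. The 8 were 5 without vehicle replicate 5, and the 0 was 1 without napabucasin replicate 1 or 4 or vehicle replicate 1 and with the replicate block.

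Irf7, a master factor of type I interferon, averaged 194.8 ± 66.9 CPM in napabucasin livers and 105.8 ± 35.3 CPM in vehicle livers (SD, n = 5 each; log2 fold change 0.88, SE 0.29, edgeR adjusted p = 0.246). Irf9 and Irf1 had log2 fold changes of 0.42 and 0.36, the receptor chain Il10rb of 0.87, the kinase Tyk2 of 0.77 and Irf8 of 0.79. Stat3, whose protein napabucasin is known to block, averaged 91.6 ± 8.81 CPM in napabucasin livers and 107.5 ± 30.0 CPM in vehicle livers (log2 fold change -0.23, SE 0.20, edgeR adjusted p = 0.578). All 7 of these genes had overlapping groups.

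Feedback inhibitors of interferon signalling had a median log2 fold change of 0.15 over 9 tested genes, and 1 of the 9 had an unadjusted p below 0.05, the phosphatase gene Ptpn6 (0.48), a share near the 9.34% of all genes that were higher. Isg15 and Usp18, a ubiquitin-like tag and the protease that removes it, had log2 fold changes of 0.81 and 0.43, and Ptpn11 of -0.25, all with overlapping groups. The count of 1 became 0 without napabucasin replicate 3 or 4 or vehicle replicate 3, 4 or 5, 0 with the replicate block, and 2 without napabucasin replicate 2.

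**Figure D5:**
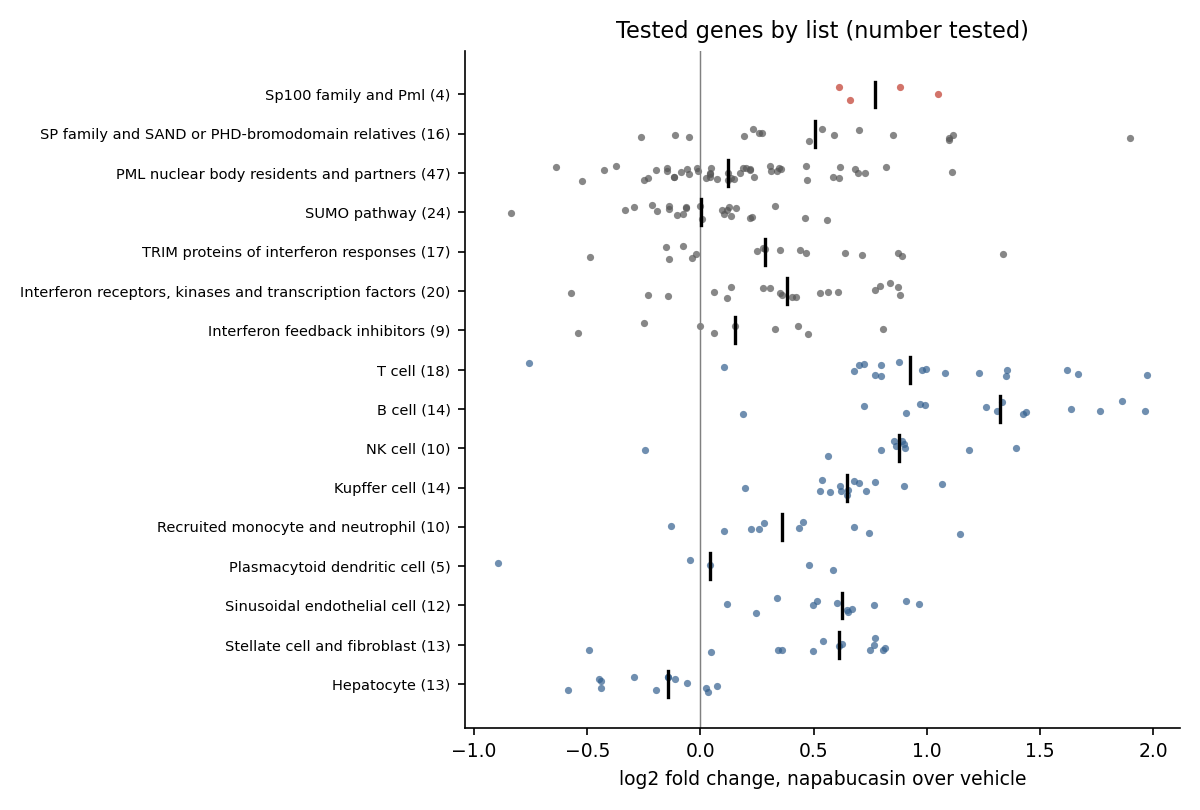
Log2 fold change of napabucasin over vehicle for each tested gene of the 4 members (red), the pathway lists (grey) and the cell-type marker lists (blue), 1 point per gene, with black bars at the medians and the number tested in brackets. The 4 members lie between 0.61 and 1.05, the SUMO list is centred on 0.00 and the B cell list on 1.32.

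Markers of immune and stromal cells were mostly on the same side as the 4 genes, and their part in the values of Sp100, Sp110, Sp140 and Pml was not tested. Of the B cell markers 13 of 14 were higher with an unadjusted p below 0.05, against 9.34% of all genes, and their summed level was 97.9 to 188.8 CPM in napabucasin livers and 51.5 to 75.7 CPM in vehicle livers, without overlap. For T cells it was 10 of 18, with sums of 38.7 to 74.8 CPM in napabucasin livers and 30.1 to 50.8 CPM in vehicle livers. For NK cells it was 6 of 10 tested, with sums of 29.3 to 68.1 CPM in napabucasin livers and 16.4 to 34.1 CPM in vehicle livers. The 6 were 3 without napabucasin replicate 2, 3 or 4 or vehicle replicate 1. edgeR called 0 of these markers after adjustment, and DESeq2 called 11 of the B cell, 5 of the T cell and 1 of the NK cell markers, against 1.07% of all its genes.

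Of the Kupffer cell markers, 14 of 14 had a log2 fold change above 0 (50.1% of all genes did), with a median of 0.65. With an unadjusted p below 0.05, 2 of the 14 were higher, a share near the 9.34% of all genes. They summed to 921.8 to 3223 CPM in napabucasin livers and 498.1 to 2492 CPM in vehicle livers. The 2 were 0 without napabucasin replicate 1, 1 without napabucasin replicate 2, 3 or 4 or vehicle replicate 5, 4 without vehicle replicate 2 and 8 without napabucasin replicate 5. Sinusoidal endothelial markers had 3 of 12 higher (277.4 to 404.0 CPM in napabucasin livers, 111.8 to 316.9 CPM in vehicle livers), 7 without vehicle replicate 1, 6 without vehicle replicate 2 and 7 with the replicate block. Stellate cell and fibroblast markers had 6 of 13 higher (412.1 to 1007 CPM in napabucasin livers, 358.0 to 509.5 CPM in vehicle livers). Log2 fold changes were above 0 for 12 of 12 sinusoidal endothelial markers (median 0.62) and 12 of 13 stellate and fibroblast markers (median 0.61). Recruited monocyte and neutrophil markers had 1 of 10 tested higher, also near 9.34% (113.4 to 425.0 CPM in napabucasin livers, 78.5 to 481.6 CPM in vehicle livers), 2 without napabucasin replicate 5 and 4 with the block. Plasmacytoid dendritic cell markers had 0 of 5 tested (125.7 to 323.3 CPM in napabucasin livers, 163.5 to 272.1 CPM in vehicle livers), and 1 without vehicle replicate 4. Above 0 lay 9 of 10 monocyte and neutrophil markers (median 0.36) and 3 of 5 plasmacytoid dendritic cell markers (median 0.04).

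Hepatocyte markers had 3 of 13 log2 fold changes above 0 and 10 below, with a median of -0.14. With an unadjusted p below 0.05, 0 of 13 were higher and 1 lower, against 9.34% and 5.83% of all genes. They summed to 83687 to 146086 CPM in napabucasin livers and 56857 to 171157 CPM in vehicle livers, so the tissue's own markers were abundant in every library. The 1 lower was 0 without napabucasin replicate 1 or vehicle replicate 3 or 5, and 2 without vehicle replicate 1. No marker of the 9 lists had 0 reads in all libraries.

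Across the whole table, library totals were 15364342 to 17369118 reads in napabucasin livers and 14124484 to 17759967 reads in vehicle livers. Mitochondrial genes took 9.03% to 19.9% of reads in napabucasin livers and 7.03% to 19.0% in vehicle livers. Ribosomal RNA took 1.09% in each of napabucasin replicates 1 and 2, and 0.426% to 0.455% in napabucasin replicates 3 to 5. In vehicle livers it took 0.912% in replicate 2 and 0.195% to 0.431% in the other replicates. The depth behind the deposited FPKM ran from 11911995 in vehicle replicate 1 to 22249867 in vehicle replicate 2. Whether these differences bear on the 4 genes was not tested. The smallest adjusted p of edgeR was 0.0644, and 1331 genes on the higher and 830 on the lower side had an unadjusted p below 0.05. With library size only there were 1407 higher and 361 lower, and with the replicate block 1675 higher and 1255 lower. The higher genes were 852 without napabucasin replicate 1 and 867 without vehicle replicate 5, and the lower genes were 457 without vehicle replicate 5, 458 without napabucasin replicate 2 and 522 without vehicle replicate 3.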

How the data were processed

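Polyadenylated RNA of 10 whole mouse livers was sequenced, 1 library per replicate; the labels call the libraries biological replicates, and p-values measure only the spread between them. The deposited counts are raw reads per gene, from HISAT2 2.0.5 and featureCounts 1.5.0-p3 on GRCm38, per the submitters' processing notes. The authors' deposited FPKM divide by gene length and by a depth that, in all 10 libraries, matched median-of-ratios size factors on the scale of the geometric mean total. No strand setting, annotation release or rule for reads that fit several genes is given in the sources used here, and the labels name no batch. The files hold 0 other columns of per-sample values.

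Counts were tested across all genes in R 4.3.3 with edgeR 4.0.16 (filterByExpr, TMM normalization, robust quasi-likelihood test with treatment as the only term, Benjamini-Hochberg adjustment, threshold 0.05). This fit was first tested on simulated data, drawn for each gene independently from its fitted spread, and no outcome is given here. Those data held no shared cell content and no pairing, so they cannot show how the fit handles either. CPM values use TMM library sizes, and log2 CPM for correlations has a prior count of 2. The SE of a log2 fold change is the one implied by the F statistic. The members and the 16 gene lists were chosen with earlier results of these data known. Named genes are the members, up to 4 of each list by smallest p (in the text for the 7 pathway lists), genes of the family's neighbourhood with a mean of at least 1 CPM, the 5 most like each member, and Stat3, Irf1, Irf7, Irf9, Daxx and Atrx; 1 further gene of the rule is not reported here. Alternatives were other normalizations and filters, a non-robust fit, DESeq2 1.42.0, limma 3.58.1 (voom with quality weights, and trend on log2 FPKM with pseudocounts of 1 and 0.1), a replicate block and each library left out; the alternatives for the correlations were chosen after seeing the data.

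What the replicate numbers stand for is not in the labels. Library deviations from the means of their groups correlated at 0.154, 0.227, 0.208, 0.270 and 0.278 between same-numbered libraries, all above 0.1. Of 10 libraries, 6 correlated best with their own number. No values between differently numbered libraries are given for comparison, so whether the numbers pair the samples is not settled. A pairing by number was therefore taken up, from the data alone, only as the replicate block among the alternatives. The main fit has no block, and its SE and p-values leave such a pairing out. Promoter windows came from RefSeq (GRCm38.p6), and transcripts from GENCODE M21, whose coordinates of the 4 genes equal those of the count table.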

Additional observations from a re-analysis of the deposited data

Results flagged for a closer look

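Dixon's ratio, the gap of the most extreme library to its neighbour over the range of its group, was above 0.71 in 9 of 80 groups of 5 libraries (40 genes), where chance gives about 1 in 20, or 4. That share holds for independent, normally distributed values. The 80 groups share the same 10 libraries, and many of the genes were named by small p, so no excess is read from the 9. Among the 4 genes it picked out Pml in napabucasin replicate 1, at 73.0 CPM against 49.5 to 54.1 CPM in the other napabucasin libraries, and Sp140 in vehicle replicate 4, at 6.86 CPM against 3.85 to 4.52 CPM in the other vehicle libraries.

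Among the Phf11 genes, Phf11d was low in napabucasin replicate 2 (10.8 CPM, others 19.4 to 22.5), Phf11b high in napabucasin replicate 4 (15.8 CPM, others 5.73 to 8.40) and Phf11c high in napabucasin replicate 1 (49.0 CPM, others 9.30 to 19.4). Near the Sp100 family, napabucasin replicate 1 was high for A530040E14Rik (4.30 CPM, others 2.10 to 2.54) and for 2810459M11Rik (90.2 CPM, others 47.9 to 58.3). Arntl was high in vehicle replicate 1 (28.5 CPM, others 8.24 to 11.7) and Usp18 in vehicle replicate 3 (25.7 CPM, others 16.2 to 18.4).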

How the results depend on the processing

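The log2 fold change of each of the 4 genes was above 0 under all 21 alternatives. With libraries left out in turn it ranged from 0.95 to 1.17 for Sp100, from 0.72 to 1.04 for Sp110, from 0.50 to 0.85 for Sp140 and from 0.50 to 0.66 for Pml. Over the other alternatives it was lowest on log2(FPKM + 1), which understates low genes (0.84, 0.38, 0.40 and 0.53 in the same order), and highest with library size only (1.08, 0.95, 0.72 and 0.68), which moved the median of all genes to 0.07. edgeR called 0 genes of the table, 0 of the 4 and 0 of the pathway lists. Without a filter on low counts it called 19 genes, 15 of them higher (0.0565% of its genes), with 1 of the 4 among them (Sp100, 1.02). DESeq2 called 209 genes, 158 higher (1.07% of its genes) and 51 lower (0.347%). Among them were 2 of the 4 (Sp100 1.04, Pml 0.60) and 2 genes of the pathway lists. limma-voom called 156 genes, 115 higher (0.807%) and 41 lower (0.288%). Among them were 2 of the 4 (Sp100 1.06, Pml 0.57) and 3 genes of the pathway lists (Phf11d, Arntl and Rnf4). The 4 were chosen in this contrast, so nothing is read from their calls. Library size only and log2(FPKM + 0.1) called 1 gene each. With libraries left out in turn, edgeR called 0 to 18 genes and 0 of the 4: the 18 came without vehicle replicate 1, and 3 came without napabucasin replicate 5. The cause of these differences between tools was not tested. With the replicate block, 0 genes were called, and the block changed no adjusted call. The 27 to 193 reads per library of Sp110 and the 45 to 189 of Sp140 limit their precision. Genes around the family stayed at 0 calls under the alternatives run.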
